A study of Mus musculus with 73 samples.

Results

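The nuclear genes of oxidative phosphorylation (OXPHOS) were followed in 73 single lung macrophages. They were taken as all rows of the deposited FPKM table whose symbols follow the usual names of respiratory chain and ATP synthase subunits (Ndufa, Ndufb, Ndufc, Ndufs or Ndufv with a number, Sdha to Sdhd, Uqcr, Cox with a number and letter, and Atp5) and which reached FPKM of 1 or more, the level called detected here, in at least 8 cells. Of 23994 mouse gene rows, 82 matched the symbols and 74 passed the detection filter. FPKM, fragments per kilobase of transcript, scaled for sequencing depth, is normalised for transcript length, so that levels can be set side by side between genes.

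Oxidative phosphorylation is carried out in the inner mitochondrial membrane. Complex I (NADH dehydrogenase) and complex II (succinate dehydrogenase) pass electrons to ubiquinone, complex III passes them to cytochrome c, complex IV (cytochrome c oxidase) passes them to oxygen, and ATP synthase uses the proton gradient built on the way to make ATP. Most subunits are encoded in the nucleus and a small set in the mitochondrial genome. Alveolar macrophages are the resident phagocytes of the air spaces, known for taking up surfactant lipid and for a metabolism that relies on mitochondria, whereas Ccr2 marks monocytes that enter tissue from the blood and cells that derive from them.

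All cells came from the right lung lobes of 1 adult Csf1r-GFP mouse of 10 weeks, in which green fluorescent protein follows the promoter of the macrophage growth factor receptor Csf1r, 7 days after pneumonectomy, the surgical removal of the left lung lobe. The sort gate was CD45+, CSF1R-GFP+ and F4/80+ (Ly6G also appears in the labels, but with no plus or minus), and cells were captured on a Fluidigm C1 chip. The labels give 1 group only, and cells of an unoperated lung were not analysed here. Because cells of 1 mouse are not replicates of a condition, no test was made, no p-value is given, and every standard deviation (SD) describes the spread over cells.

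Within this group 2 classes of cells were compared. Alveolar-macrophage-like cells held at least 2 of the 3 genes Ear1, Car4 and Plet1 at FPKM of 10 or more with Ccr2 below 1, and Ccr2-positive cells held Ccr2 at 1 or more without meeting the former condition. There were 12 cells of the former and 48 of the latter, while 11 cells met neither definition and 2 met both. All 12 alveolar-macrophage-like cells had at least 5 of 11 further alveolar macrophage markers at FPKM of 10 or more (Chil3, a chitinase-like protein, had a median of 5552 against 79.8 in Ccr2-positive cells), and in none of them did 3 or more of 9 classical monocyte markers reach that level. Of the 48 Ccr2-positive cells, 38 held at least 5 of the 9 monocyte markers. The latter class was heterogeneous: 7 cells held at least 3 of 6 interstitial macrophage markers such as C1qa, 3 held at least 5 of the alveolar markers, 4 held at least 3 of 10 cell cycle genes and 1 held at least 3 endothelial markers, and of the alveolar-macrophage-like cells 1 held at least 3 cell cycle genes. Estimated mouse fragments per cell ran from 347003 to 3485926, with medians of 1057395 in alveolar-macrophage-like and 1517007 in Ccr2-positive cells, while the medians of detected genes were 2739.5 and 2257.

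The subunit genes were expressed at high but very unequal levels. Mean FPKM over the 73 cells ran from 18.3 for Sdha, the flavoprotein of complex II, to 950.1 for Cox6a1, a small subunit of complex IV, with a median over members of 162. Members were detected in 8 to 70 cells, with a median of 51.5, and 57 of 74 were detected in at least 37 cells. Cox6c and Cox8a, small subunits of complex IV, were found in 70 cells each. Across the 74 members, mean FPKM and number of cells were positively related (Pearson r = 0.88, Spearman rho = 0.89, a description over genes of the same 73 libraries).

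**Figure D1:**
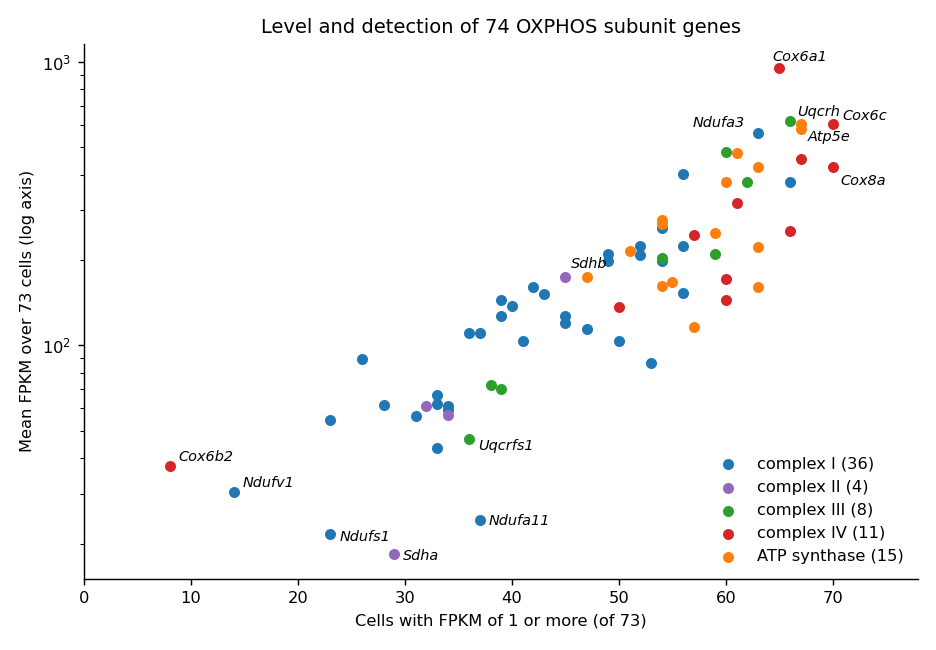
Each point is 1 of 74 subunit genes, placed by the number of cells of 73 with FPKM of 1 or more (horizontal) and by mean FPKM over all 73 cells (vertical, log axis), and coloured by complex with the number of members in brackets. Cox6a1 stands highest at 950.1 and Sdha lowest at 18.3, and the points form a rising band in which most complex IV and ATP synthase genes lie to the upper right.

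In complex I 36 of 37 matching genes were members, and their mean FPKM spanned 21.6 to 563. The lowest was Ndufs1, the large iron-sulphur subunit of the peripheral arm (21.6 ± 59.2, SD, 73 cells), and the highest Ndufa3, a small accessory subunit (563 ± 556). The 7 core subunits, which carry the flavin and iron-sulphur clusters, had a median of 59, against 138 for the 29 accessory subunits. Core genes were detected in 14 to 39 cells and accessory genes in 23 to 66. Core transcripts were also longer, with a median length of 1312 bases against 645 in GENCODE M21. Across all 74 members, transcript length and mean FPKM were negatively related (r = -0.59, rho = -0.60), and the part of length in the low values of core genes was not tested.

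All 4 genes of complex II passed the filter, at low levels. Sdhb, the iron-sulphur subunit, had a mean of 175 ± 373 in 45 cells. Sdhc and Sdhd, the membrane anchors, had means of 61.2 ± 169.8 and 56.8 ± 113 and were detected in 32 and 34 cells. Only Sdhb was detected in 37 cells or more.

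In complex III all 8 matching genes were members, from Uqcrfs1, the Rieske iron-sulphur protein (46.6 ± 115), to Uqcrh, the hinge protein that binds cytochrome c1 (618 ± 700.2). The core proteins Uqcrc1 and Uqcrc2 had means of 72.6 and 70.4, while the small subunits Uqcrb and Uqcrq had 482 and 377.

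Of 17 genes matched by the Atp5 symbol of ATP synthase, 15 were members, and each of these was detected in at least 47 cells. Their means ran from 116 ± 155 for Atp5a1, the alpha subunit of the catalytic head, to 603 ± 615 for Atp5e, the small epsilon subunit. Atp5s and Atp5sl, matched by symbol only and named Dmac2l and Dmac2 in RefSeq, failed the filter, with 2 and 5 cells.

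In complex IV 11 of 16 matching genes were members, and the tissue-specific isoforms divided sharply. Cox6a1, the form of most tissues, was detected in 65 cells, and its muscle form Cox6a2 in 0 of 73. Cox8a was detected in 70 cells, and its relatives Cox8b and Cox8c in 0. Cox7a2 and Cox7a2l, the latter a factor of respiratory supercomplexes, were detected in 50 and 60 cells, the muscle form Cox7a1 in 1 and Cox7b2 in 0. Cox6b1 was detected in 67 cells with a mean of 455 ± 461. Cox6b2, known as a testis form, sat exactly at the limit of 8 cells, and its mean of 37.5 came largely from 1 alveolar-macrophage-like cell at 1685. The next member above that limit was Ndufv1 with 14 cells, and the nearest gene below it Atp5sl with 5.

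The remaining gene below the filter was Ndufa4l2, a relative of Ndufa4 known to be induced in low oxygen, which was detected in 0 cells. Ndufa4 itself, named for complex I and since placed in complex IV, was detected in 56 cells. By its symbol it is counted with the accessory subunits of complex I throughout. The symbol pattern also left out genes of the same machinery: Cox4i1, the common form of the fourth subunit of complex IV, had a mean of 779.9 ± 534 and was detected in 71 cells, while its lung form Cox4i2 was detected in 0. None of the 13 subunits encoded in the mitochondrial genome had a row in the table analysed here, so that values concern the nuclear share of each complex.

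Taken per cell, the members were a larger share of the transcriptome in the alveolar-macrophage-like cells. The summed FPKM of the 74 genes was 2.42% to 6.08% of all mouse FPKM in these cells, with a median of 4.21%, and 1.53% to 6.61% in Ccr2-positive cells, with a median of 3.53%. The ranges overlapped, yet 9 of 12 alveolar-macrophage-like cells lay above the Ccr2-positive median and 4 of 48 Ccr2-positive cells above the alveolar one. The class means were 4.48% ± 1.13 and 3.44% ± 0.808 (SD, 12 and 48 cells). Cells of neither class had the lowest share, with a median of 3.05% and a range of 1.81% to 3.77%. The highest share of all, 6.61%, was that of a Ccr2-positive cell with the lowest number of detected genes, 1044.

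The difference of 0.684 percentage points between class medians was smaller than 1 SD over cells in either class. The difference of class means, 1.04, was below the SD of alveolar-macrophage-like cells (1.13) but above that of Ccr2-positive cells (0.808). The difference of medians was 1.49 where all 3 of Ear1, Car4 and Plet1 were required. In the deposited normalised counts it was 0.350 percentage points, with medians of 1.66% and 1.31%. In each of these settings the alveolar-macrophage-like median was the higher.

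By complex, the share taken by complex IV differed most in percentage points, with medians of 1.10% in alveolar-macrophage-like and 0.748% in Ccr2-positive cells. Complex I followed with 1.45% against 1.14%. ATP synthase (1.11% and 1.02%) and complex III (0.496% and 0.438%) were closer. Complex II took the smallest share in both classes, with the Ccr2-positive median the higher (0.0199% and 0.0363%). Its mean share (0.110% and 0.0603%) and its median of mean log2(FPKM + 1) over members (3.39 and 2.13) went the other way. The ranges of the classes overlapped for every complex.

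On the log scale the classes lay closer. The OXPHOS level of a cell, the mean of log2(FPKM + 1) over the 74 members, had a median of 5.15 in alveolar-macrophage-like cells (range 3.02 to 6.74) and of 5.08 in Ccr2-positive cells (1.88 to 6.67), and of 3.78 in cells of neither class. The difference of medians, 0.07, was well within the SD over cells of 1.06 and 1.27, and the means were 5.16 and 4.66. It ranged from 0.02 to 0.43 over the alternative settings, and single draws of the thinning gave 0.00 to 0.19. Ccr2-positive cells had a longer lower tail, and 22 of 48 lay above the alveolar-macrophage-like median.

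The level followed how much of the transcriptome a cell showed. Over the 73 cells it was related to the number of detected genes (r = 0.82, rho = 0.82), to mouse fragments (0.69 and 0.68) and to mouse fragments relative to spike-in fragments (0.83 and 0.80), all measured in the same libraries. After every cell was thinned to 347003 mouse fragments the relation to detected genes was r = 0.82 and rho = 0.81. Within the 12 alveolar-macrophage-like cells r was 0.90, and within the 48 Ccr2-positive cells 0.78. The share of FPKM was related to detected genes less closely (r = 0.26, rho = 0.36). Mouse relative to spike-in fragments had class medians of 2.01 and 1.77, and whether a cell with a low level held less RNA or lost more of it in capture was not tested.

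**Figure D2:**
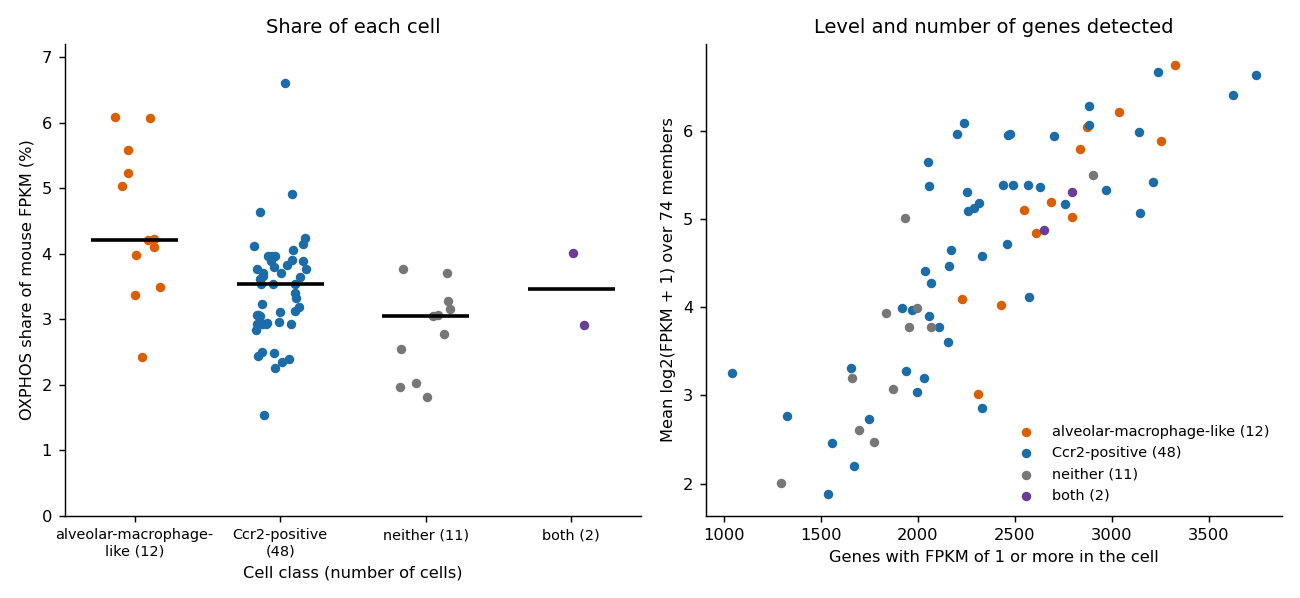
Left, each point is a cell and the bar the class median of the OXPHOS share of mouse FPKM in percent, by cell class with the number of cells in brackets; medians were 4.21% in alveolar-macrophage-like, 3.53% in Ccr2-positive and 3.05% in neither-class cells. Right, the mean log2(FPKM + 1) over 74 members is plotted against the number of genes with FPKM of 1 or more in the same cell; the points rise together (r = 0.82 over 73 cells), and the classes overlap.

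Members varied together from cell to cell only weakly. For the 57 members detected in at least 37 cells, the median Spearman correlation over 1596 pairs was 0.13 across the 73 cells, against 0.06 over all pairs of the 1285 genes with that detection. It was 0.12 within complexes and 0.13 between them, and the highest pair reached 0.57. With every cell rescaled to the same FPKM total, the medians were 0.08 and 0.03. The levels of whole complexes (means over their members in a cell) were more closely related, with r of 0.80 between complex IV and ATP synthase and 0.79 between complexes I and IV, but 0.30 between complexes II and III. All these points share library depth and detection.

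Gene by gene, the class difference was taken as mean log2(FPKM + 1) in alveolar-macrophage-like cells minus that in Ccr2-positive cells, and a gene was counted as higher or lower at a difference of at least 1 log2 unit. Of the 74 members, 25 (33.8%) were higher in alveolar-macrophage-like cells, against 17.6% of all 6151 genes detected in at least 8 cells, and 7 (9.46%) were lower, against 10.9%. The median difference over members was 0.53, against 0.06 over all genes, and 50 of 74 were above 0. Among the 57 members detected in at least 37 cells, 20 (35.1%) were higher, against 21.9% of 1285 genes, and 6 (10.5%) were lower, against 23.3%. Members were thus more often higher than genes at large, and among widely detected genes less often lower, as a description of these cells.

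The differences were small beside the spread. The SD over cells had a median over members of 3.33 log2 units in each class, and most members were undetected in some cells of both. For 0 members did the difference exceed the SD of both classes, and for 4 it exceeded that of 1 class: Uqcr11, Atp5k, Ndufb11 and Ndufv1. No member separated the classes without overlap of FPKM. Leaving out each of the 60 cells in turn kept 18 of the 25 higher and all 7 lower members past 1 log2 unit. The other 7 (Cox5b, Cox6b2, Cox7a2, Ndufa13, Ndufv3, Uqcr10 and Uqcrb) fell below it without certain single cells, and the median difference over members ran from 0.34 without alveolar-macrophage-like cell 19 to 0.80 without cell 91 of the same class. With a pseudocount of 10 in place of 1, which gives less weight to detection, 13 members were higher and 4 lower, and with all 3 class genes required 25 were higher and 11 lower.

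**Figure D3:**
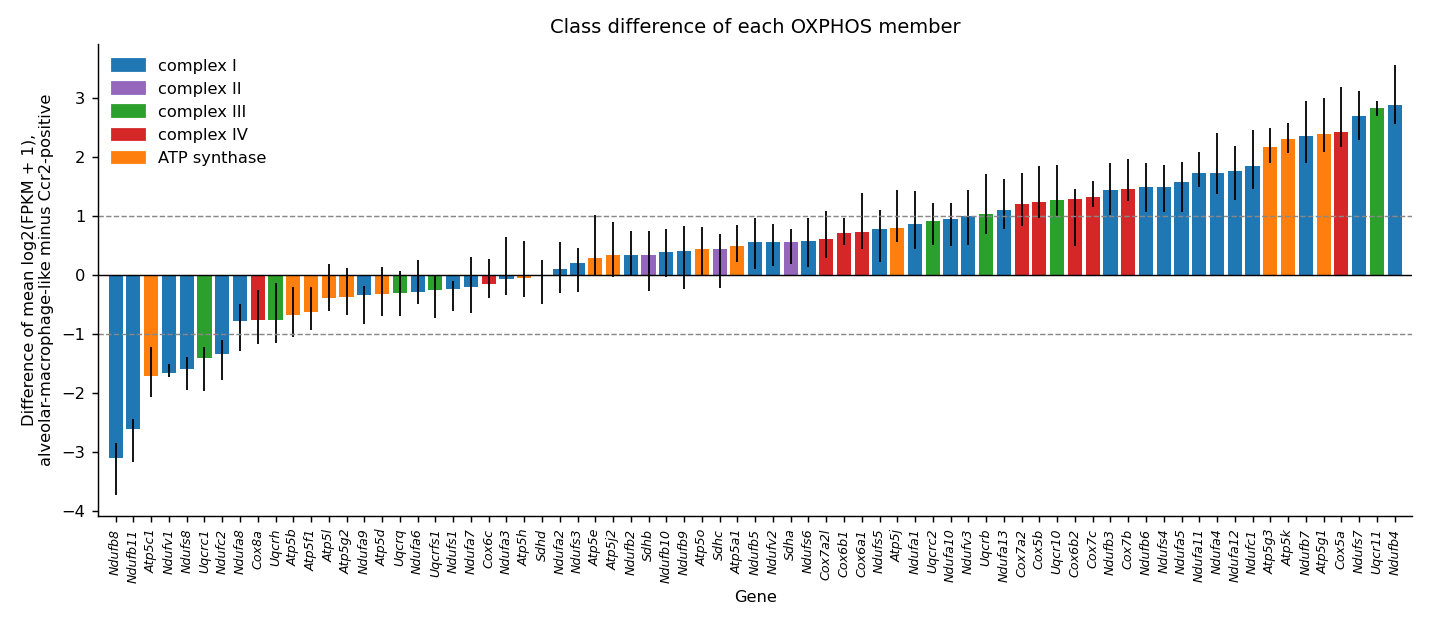
Bars give, for 73 of the 74 members ordered by value and coloured by complex, the difference in mean log2(FPKM + 1) between 12 alveolar-macrophage-like and 48 Ccr2-positive cells; black lines span the values when each cell is left out in turn, and dashed lines mark 1 log2 unit in each direction. The bars run from -3.10 for Ndufb8 to 2.89 for Ndufb4, with 25 above and 7 below the dashed lines. The lowest complex IV gene (red) is Cox8a at -0.75, short of the lower dashed line.

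Promoter sequences of the 3 genes below are shown because these genes had among the largest differences in either direction and held letters of factors known to act on genes of this pathway. RefSeq promoters of GRCm38.p6, 250 bases before to 50 after the start, were matched for 64 of 74 members, and the 3 were chosen after their values were seen. Capitals mark matches to the motifs searched on both strands: CCGGAAG (core of ETS factors such as GABP), GCATGCGC (NRF1 core) and AAGATGGC (YY1 core). Matches did not overlap within these windows.
Uqcr11, chr10:80406772-80407071, minus strand, GRCm38.p6: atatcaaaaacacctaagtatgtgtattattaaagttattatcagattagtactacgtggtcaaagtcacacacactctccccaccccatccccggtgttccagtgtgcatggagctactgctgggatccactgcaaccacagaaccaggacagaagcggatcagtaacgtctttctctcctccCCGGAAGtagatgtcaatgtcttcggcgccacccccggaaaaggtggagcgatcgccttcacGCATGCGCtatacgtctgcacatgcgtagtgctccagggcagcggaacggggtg
Ndufs7, chr10:80249199-80249498, plus strand, GRCm38.p6: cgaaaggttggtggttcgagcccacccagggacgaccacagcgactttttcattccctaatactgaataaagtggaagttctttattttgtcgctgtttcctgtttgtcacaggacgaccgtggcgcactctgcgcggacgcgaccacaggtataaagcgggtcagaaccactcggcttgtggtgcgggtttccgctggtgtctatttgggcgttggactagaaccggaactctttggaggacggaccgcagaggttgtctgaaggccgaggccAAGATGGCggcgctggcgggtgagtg
Ndufb8, chr19:44555393-44555692, minus strand, GRCm38.p6: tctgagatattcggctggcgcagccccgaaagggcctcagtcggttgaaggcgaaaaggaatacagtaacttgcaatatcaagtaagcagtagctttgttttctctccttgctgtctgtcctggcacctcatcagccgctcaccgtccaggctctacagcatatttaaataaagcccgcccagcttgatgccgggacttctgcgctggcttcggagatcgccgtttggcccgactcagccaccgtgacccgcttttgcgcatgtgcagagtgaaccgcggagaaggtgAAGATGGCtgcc

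In Uqcr11 the ETS core began 66 bases and the NRF1 core 4 bases before the first transcribed base. In Ndufs7 and Ndufb8, which differed between the classes in opposite directions, the YY1 core began 24 and 38 bases after the start used for the window. For Ndufs7 that start lies inside the annotated gene. Its whole window, 80249199 to 80249498, follows the RefSeq gene start at 80249105. Over the 64 members with a promoter, the ETS core was found in 16 (25%), against 9.93% of all 27025 genes in the table and 23.1% of the 4941 genes detected in these cells. The YY1 core was found in 10 members (15.6%, against 3.19% of all and 6.09% of detected genes), and the NRF1 core in 10 (15.6%, against 3.05% and 6.58%). Of the 30 members with any of the 3 motifs, 8 were higher in alveolar-macrophage-like cells and 3 lower. Among the 34 with none, 16 were higher and 4 lower. Over all 6151 genes detected in at least 8 cells, 17.6% were higher and 10.9% lower, and a relation of motifs to class differences was not tested. A match is only a stretch of letters, and binding was not measured.

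Complex I held both ends of the ranking, with 13 members higher and 5 lower of 36 (36.1% and 13.9%). Of all genes detected in at least 8 cells, 17.6% were higher and 10.9% lower. Ndufb4, an accessory subunit of the membrane arm, had the largest positive difference. Its FPKM ran from 0 to 1790.0 with a median of 359.8 in alveolar-macrophage-like cells, where 11 of 12 detected it, and from 0 to 833 with a median of 13 in Ccr2-positive cells, where 33 of 48 did. Most alveolar-macrophage-like cells were therefore high while the Ccr2-positive cells spread over the whole range, and the difference was 2.89 log2 units.

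Ndufs7, a core iron-sulphur subunit next to the ubiquinone site, was detected in 9 of 12 and 17 of 48 cells, with medians of 20.9 (range 0 to 575) and 0 (0 to 972). Its difference was 2.71, from mean log2 values of 4.61 ± 3.66 and 1.89 ± 2.99. Ndufs8, its neighbour among the iron-sulphur subunits, went in the opposite direction. In alveolar-macrophage-like cells Ndufs8 did not pass 70.3, with 6 of 12 cells detecting it, whereas it reached 972 in Ccr2-positive cells, with 29 of 48, and the difference was -1.59.

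Ndufv1, the flavin-binding subunit through which NADH electrons enter, stayed below FPKM of 1 in all 12 alveolar-macrophage-like cells (highest 0.828; exact 95% upper limit 26.5% of cells, for counting error only and not for missed transcripts) and was found in 13 of 48 Ccr2-positive cells, at up to 543. The difference of -1.65 depended on the pseudocount, and was -2.41 with 0.1 and -0.89 with 10. Of the other core subunits, Ndufv2 had a difference of 0.57, Ndufs3 of 0.21 and Ndufs1 of -0.24. The median difference was 0.21 over the 7 core and 0.79 over the 29 accessory subunits.

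Ndufb8, an accessory subunit whose protein is often used as a sign of assembled complex I, had the largest negative difference. Ndufb8 was seen in 6 of 12 alveolar-macrophage-like cells (0 to 754, median 0.635) and in 39 of 48 Ccr2-positive cells (0 to 1187, median 133). Only 3 alveolar-macrophage-like cells stood at the level common among Ccr2-positive cells, as the plot of 8 genes by class shows, and the difference was -3.10. Its exons overlap those of Gm20538, a gene model on the same strand, to which some reads could belong.

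Ndufb11 followed at -2.60, with detection in 4 of 12 and 29 of 48 cells, a highest value of 236 against 887, and medians of 0.361 and 27.9. Its exons overlap those of Rbm10 on the other strand, and no strand information is stated for these libraries. Ndufc2 (-1.34) was the remaining lower member of complex I, and Ndufa8 (-0.77) lay within 1 log2 unit. The further higher members with the largest differences were Ndufb7 (2.36), Ndufc1 (1.86) and Ndufa12 (1.77), all accessory subunits. Ndufb7 was detected in 10 of 12 cells with a median of 346 and in 30 of 48 with a median of 26.4. Ndufa4, counted among the higher members of complex I by its symbol, had medians of 431 and 155 and a difference of 1.73.

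**Figure D4:**
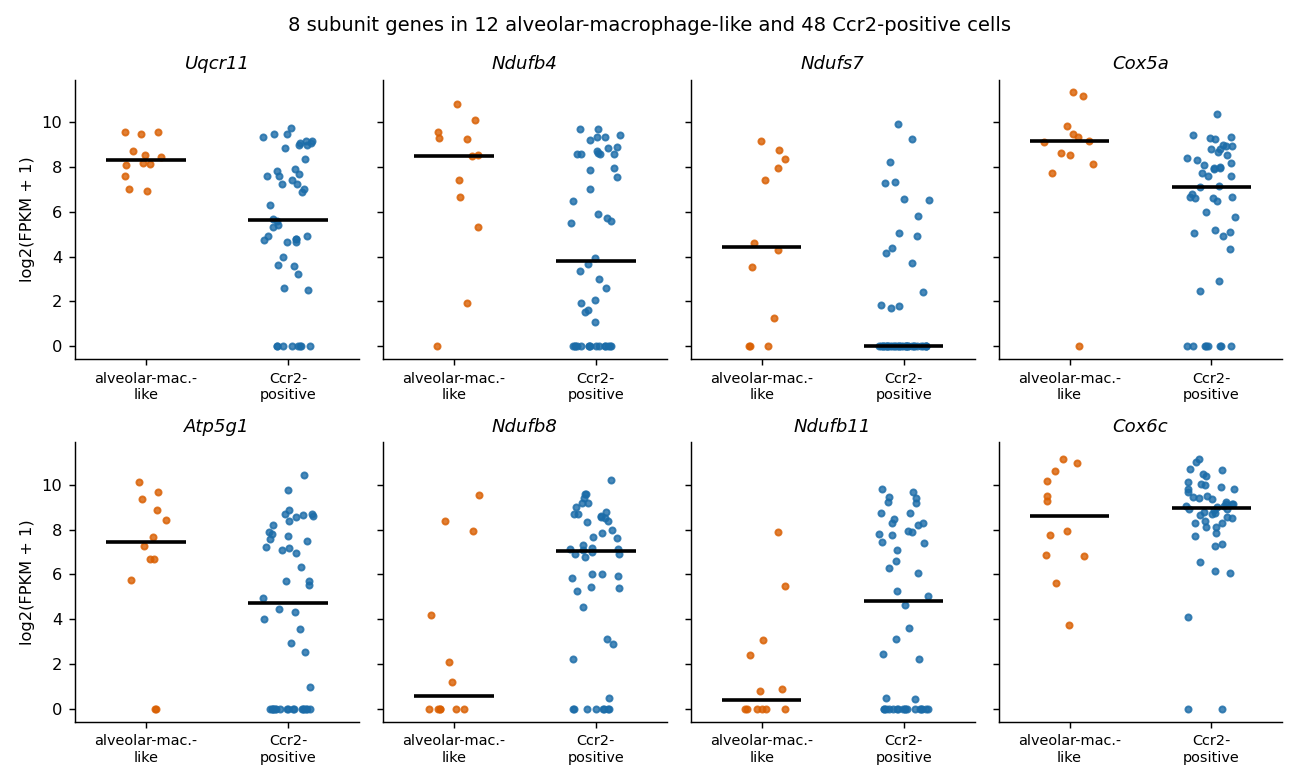
Each point is a cell, placed by log2(FPKM + 1) of the gene named above the panel in 12 alveolar-macrophage-like (orange) and 48 Ccr2-positive cells (blue), with bars at the class medians. Uqcr11 is high in each of the 12 alveolar-macrophage-like cells, Ndufb8 and Ndufb11 are at or near 0 in most of them, and Cox6c, shown as a gene with little difference (-0.14), covers a wide range in both classes.

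In complex II 0 of 4 genes reached 1 log2 unit in either direction. Differences were 0.57 for Sdha, 0.45 for Sdhc, 0.35 for Sdhb and 0.01 for Sdhd, and those of the last 3 fell below 0 when certain single cells were left out. Sdhb was detected in 9 of 12 and 28 of 48 cells, with medians of 35.4 and 25.8.

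In complex III 3 of 8 genes were higher (37.5%) and 1 was lower (12.5%), against 17.6% and 10.9% of all genes detected in at least 8 cells. Uqcr11, a small subunit, was evenly expressed in alveolar-macrophage-like cells: all 12 held it at 121 to 761, with a median of 315. In Ccr2-positive cells it was detected in 40 of 48, at 0 to 838 with a median of 49.1. The mean log2 values were 8.35 ± 0.90 and 5.52 ± 3.18, a difference of 2.83 that lay between 2.71 and 2.96 whichever cell was left out. The highest Ccr2-positive cells equalled the alveolar-macrophage-like ones, and the classes differed by the absence of low values in the latter.

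Uqcrc1, a core protein of complex III, was lower by the same rule, detected in 4 of 12 and 26 of 48 cells with a difference of -1.40. Its partner Uqcrc2 stood at 0.92. Uqcrh (-0.75) and Uqcrfs1 (-0.25) lay within 1 log2 unit.

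Complex IV had 6 of 11 members higher (54.5%), 0 lower and the largest median difference of the 5 complexes, 1.21. The shares over all genes detected in at least 8 cells were 17.6% higher and 10.9% lower. Cox5a, a nuclear subunit on the matrix side, led with 11 of 12 cells against 40 of 48, medians of 564 (0 to 2547) and 137 (0 to 1306) and a difference of 2.43. The others were Cox7b (1.47), Cox7c (1.32), Cox6b2 (1.3), Cox5b (1.24) and Cox7a2 (1.21). Cox7c was detected in all 12 alveolar-macrophage-like cells at 29.3 or more. The value of Cox6b2 rested on 3 of 12 cells and was 0.49 without cell 12.

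The most abundant genes of complex IV differed less. Cox6a1 had medians of 1164 and 709 and a difference of 0.73, Cox6b1 medians of 395 and 409 and a difference of 0.71, and Cox7a2l a difference of 0.62, which was -0.30 where all 3 class genes were required. Cox8a stood at -0.75, with medians of 213 and 336. The level of complex IV per cell had a median of 7.34 in alveolar-macrophage-like cells (4.56 to 8.03) and 6.17 in Ccr2-positive cells (2.44 to 7.75).

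In ATP synthase 3 of 15 genes were higher and 1 lower, and the 3 genes for subunit c, the proteins that form the rotating ring, had unequal differences. They encode the same mature protein. Atp5g1 was detected in 10 of 12 and 30 of 48 cells, with medians of 177 and 25.5 and a difference of 2.40. Atp5g3 was detected in 12 of 12 and 36 of 48 cells, with medians of 421 and 73 and a difference of 2.17. Atp5g2 had medians of 139 and 74.8, a highest value of 444 against 1489, and a difference of -0.37, which ran from -0.68 to 0.12 when single cells were left out.

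Summed over the 3 genes, subunit c had a median of 1006 in alveolar-macrophage-like cells (40.1 to 2713) and of 598 in Ccr2-positive cells (0 to 3268), with means of 945 ± 735 and 706 ± 695. Of the class mean, Atp5g2 contributed 15.6% in alveolar-macrophage-like and 39.1% in Ccr2-positive cells, Atp5g1 35.2% and 21.4%, and Atp5g3 49.2% and 39.5%. The sum thus differed by less than its SD over cells. Leaving out single cells moved the part of Atp5g2 between 12.4% and 17.9% in the former class and between 37.6% and 40.8% in the latter. How reads shared between such related genes were assigned is not given in the sources used here.

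Atp5k, a small subunit of the membrane part, was detected in all 12 alveolar-macrophage-like cells at 54.1 or more and in 39 of 48 Ccr2-positive cells, a difference of 2.31. Atp5c1, the gamma subunit that forms the central shaft, was the lower member, with medians of 56.2 (0 to 700.1) and 482 (0 to 1969) and a difference of -1.71. The subunits of the catalytic head lay between, at 0.50 for Atp5a1 and -0.68 for Atp5b.

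Exons of 21 of the 74 members overlap those of another annotated gene. Of these 21 members, 4 were higher and 2 lower, with a median difference of 0.42. Of the 53 without such overlap 21 were higher and 5 lower, with a median of 0.62. The shares over all 6151 genes detected in at least 8 cells were 17.6% higher and 10.9% lower.

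Other genes of mitochondrial energy metabolism, from lists of the pathway, differed in direction and size. For comparison with the counts below, 17.6% of all 6151 genes detected in at least 8 cells were higher and 10.9% lower, with a median difference of 0.06. Enzymes of mitochondrial fatty acid oxidation, which feed electrons into the chain, were most often higher: 10 of 12 detected in at least 8 cells, 0 lower, with a median difference of 1.88. Hadha, the alpha subunit of the trifunctional protein, was detected in 9 of 12 and 8 of 48 cells with means of 64.6 ± 117 and 5.24 ± 18.2 (difference 3.21). Etfa and Etfb, which carry electrons from acyl-CoA dehydrogenases towards ubiquinone, had differences of 3.08 and 2.31, and Cpt1a, the entry enzyme for long-chain fatty acids, 2.50.

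Of 17 citric acid cycle and pyruvate dehydrogenase genes 2 were higher and 0 lower (median 0.06). They were Suclg1, a subunit of succinyl-CoA ligase (2.84), and Cs, citrate synthase (1.27). Of 17 assembly factors with that detection 3 were higher and 0 lower (median 0.19), namely Coa5, Timmdc1 and Cox19. Of 68 mitochondrial ribosomal proteins 16 were higher and 5 lower (median 0.15). The 14 core proteasome genes, a comparison outside mitochondria, had 1 higher and 2 lower (median 0.04). The medians of these lists lay near the 0.06 of all genes, and the named genes are single members of lists that differed little from genes at large.

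Among 6 further respiratory genes outside the symbol pattern, 2 were higher and 0 lower (median 0.56). They were Ndufab1, the mitochondrial acyl carrier protein that is also part of complex I (2.63), and Atpif1, the inhibitor of ATP synthase, with means of 499.8 ± 509 and 222 ± 269 (2.02). Cox4i1 had a difference of 0.40 and Cyc1, cytochrome c1, of -0.81.

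Carriers and pores were split, with 2 of 8 higher and 2 lower, while 6 were above 0 and the median was 0.83. Vdac2, an outer membrane channel, stood at 2.46 and its relative Vdac3 at -1.91. Slc25a3, the phosphate carrier, stood at 1.78 and Slc25a4, an ADP/ATP carrier, at -1.42, while Slc25a5, the more abundant ADP/ATP carrier here, stood at 0.94, with class means of 886 and 889.

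Of 12 glycolytic genes 4 were higher and 3 lower (median -0.36). Aldoa (2.27), Gapdh (1.97), Ldha (1.57) and Tpi1 (1.28) were higher in alveolar-macrophage-like cells, and Eno1 (-2.65), Pkm (-2.46) and Gpi1 (-1.91) lower.

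Regulators of mitochondrial gene expression were thinly detected. Of 13 genes 5 reached 8 cells, and of these 2 were higher and 0 lower (median 0.73). Ppargc1a, Ppargc1b, Gabpa and Tfam were among those that did not reach 8 cells. Pparg, the nuclear receptor required for alveolar macrophage identity, was detected in 10 of 12 and 2 of 48 cells (difference 5.10), and it is one of the alveolar macrophage markers. Yy1 stood at 1.29, and Nrf1, detected in 8 cells, at 0.10.

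**Figure D5:**
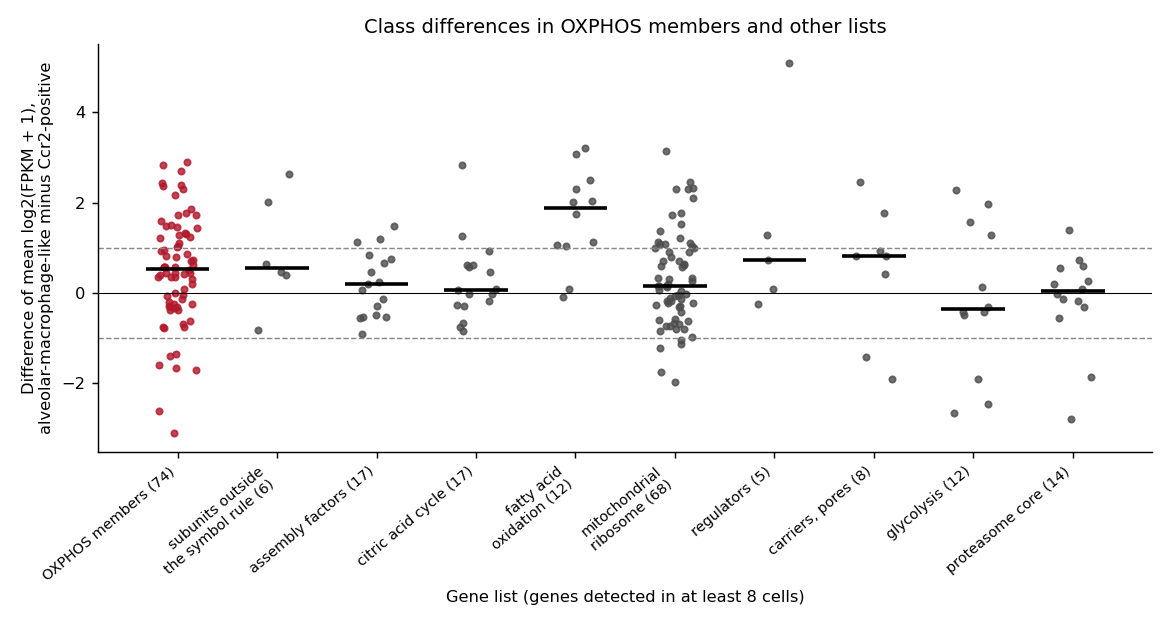
Each point is a gene detected in at least 8 cells, placed by its difference in mean log2(FPKM + 1) between alveolar-macrophage-like and Ccr2-positive cells, for the 74 OXPHOS members (red) and 9 other lists (grey, number of genes in brackets), with bars at list medians and dashed lines at 1 log2 unit. The median is 0.53 for OXPHOS members, 1.88 for fatty acid oxidation and -0.36 for glycolysis.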

How the data were processed

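Per the labels' protocols, cDNA was amplified from polyadenylated RNA with a SMARTer kit and indexed with Nextera XT. The submitters' processing notes name the build mm10 and, with no roles, Cuffnorm, Cufflinks 2.2.1, TopHat2 2.1.0 and CASAVA 1.8. Not given in the sources used here were gene annotation, strand setting and treatment of reads with several matches. The authors deposited an FPKM table, normalised for length and per cell. The authors also deposited a normalised count table, whose values are a signal and not raw counts: 99.6% of 100696 low values lay within 0.1 of whole steps, from which fragments per cell were estimated. No count model was fitted.

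The 100 spike-in rows were taken out. A gene was detected at FPKM of 1 or more. Differences are of class means of log2(FPKM + 1), which understates differences of low genes. Named genes are the highest and lowest member of each complex, the 10 largest differences in each direction, the paralog sets, complex II, the core of complex I and genes failing the filter; other members, and the genes named beside list counts, were picked after their values were seen. For 1 member, counted in all totals, single values are not reported here. The members and lists were chosen with earlier results of these data known. For thinning, fragments were drawn to 347003 per cell in 20 draws and FPKM divided by the share kept. Positions and promoters came from RefSeq GRCm38.p6, and transcript lengths (median of basic transcripts) and exon overlaps from GENCODE M21. No doublet caller was run, and the 2 cells that met both class definitions were left out of the comparison. Computations used Python 3.11.15, pandas 2.3.3, NumPy 2.4.6 and SciPy 1.17.1, and were tested on simulated data. Alternatives were other class rules, scalings, pseudocounts, filters, thinning, the count table and leaving out cells.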

Additional observations from a re-analysis of the deposited data

How the results depend on the processing

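Over the alternatives run, 0 named differences of at least 1 log2 unit changed sign, whereas smaller ones, among them those of Cox7a2l, Ndufs3, Ndufa3, Sdhb, Sdhc, Sdhd, Uqcrfs1 and Atp5g2, took the opposite sign under at least 1. For the main results, 78 values stayed within their spread or within 1.5 times of the main count, and 3 moved. With all 3 of Ear1, Car4 and Plet1 required, the number of lower members was 11 in place of 7, with 25 higher as before, and the difference in OXPHOS share was 1.49 percentage points in place of 0.684. With a pseudocount of 10, 13 members were higher and 4 lower, and with 0.1 the counts were 31 and 9. Leaving out each cell in turn gave 22 to 30 higher and 7 to 9 lower members, a median difference of 0.34 to 0.80, a level difference of 0.02 to 0.11 and a share difference of 0.682 to 0.685. The narrow range of the share reflects near ties of the middle cells, such as alveolar-macrophage-like cells at 4.21% and 4.22%. It is therefore no measure of stability. Without cells holding cell cycle genes the level difference was 0.42 and the share difference 0.859. With class genes at FPKM of 1 or more the level difference was 0.43. With differences averaged over the 20 draws, thinning kept 25 of 25 higher and 7 of 7 lower members. Single draws gave 23 to 27 higher and 7 to 8 lower. Rescaling to one total kept 23 and 7, losing Ndufv3 and Uqcrb. Restricting Ccr2-positive cells to those with at least 5 monocyte markers, chosen after seeing the data, gave 23 and 7. Causes were not tested. No paired analysis was possible because the labels give 1 group of cells from 1 mouse. Detection in 12 cells limits the precision, and members undetected in a cell may have been missed at its depth.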

Other observations

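Cells that met neither class definition showed the lowest OXPHOS values. A median of 37 members was detected in these 11 cells (19 to 61), against 55.5 in alveolar-macrophage-like and 52 in Ccr2-positive cells, and the number of all detected genes was also lowest, with a median of 1875. For subunit c of ATP synthase, Atp5g2 made up 57.8% of their mean and Atp5g3 12%. Of the 11 cells, 4 held at least 3 interstitial macrophage markers. The 2 cells that met both definitions had OXPHOS shares of 2.91% and 4.01%, with 56 and 58 members detected.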
